A study of Mus musculus with 6 samples.

Results

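The genes described here are 45 listed genes of the complement system, of blood clotting and clot removal, and of the acute phase response. They were followed in mouse neurospheres, which are free-floating balls of dividing cells. The members form a fixed gene list. Each is represented by its probe set (a group of short array probes read together as 1 value) with the highest mean over the 6 arrays. Of the 45 genes, 40 had such a probe set, out of 18194 genes on the array. C3, C4b, C7, Cfd and F2rl1 were not analysed here.

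All cells came from C57BL/6J mice, with no transgene or deletion named in the labels. The rNCSC group held 3 arrays of neurospheres grown from dorsal root ganglia, the sensory ganglia along the spinal cord, dissected at embryonic day 12.5. The labels describe these cells as reprogrammed in culture and able to form central nervous system progeny. The pNCSC group held 3 arrays of spheres grown from palatal tissue of 3 to 5 adults, 6 to 8 weeks old. Both groups grew without serum in medium with bFGF (20 or 40 ng/ml), EGF (20 ng/ml), heparin, N2 and B27 (1% or 3%), and RNA was taken from spheres at passage 3. Which bFGF and B27 level each culture received is not given in the sources used here. Heparin, which the medium of both groups held, is itself an anticoagulant. Tissue of origin, age and the reprogramming described for rNCSC change together between the groups, so they cannot be told apart. Any difference in bFGF or B27 level between the cultures could not be told apart from them either. Whether replicate arrays stand for separate cultures or animals is not given in the labels, so every p-value reflects the spread among these 6 arrays alone, which may be technical. Values correlated at 0.988 to 0.996 between arrays of 1 group and at 0.833 to 0.844 between groups. Of marker genes for the labelled states, 10 of 10 CNS progenitor genes passed the test as higher in rNCSC, while 5 of 5 measured neural crest and glia genes and 10 of 10 mesenchymal genes passed it as higher in pNCSC. Of all tested genes, 40.2% passed it as higher in rNCSC and 33.1% as higher in pNCSC. Among these markers, 7 CNS progenitor genes were tested through the rNCSC arrays alone. Through the pNCSC arrays alone, 4 neural crest and glia genes and 7 mesenchymal genes were tested, so all of these had to differ.

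Complement is a cascade of proteases and binding proteins in which C1, lectin-bound or alternative pathway enzymes cut C3 and C5, after which terminal components form a pore in membranes and regulators on host cells limit the attack. Clotting starts when tissue factor meets factor VII, runs through factors X and V to thrombin and fibrin, and is held back by thrombomodulin, the protein C receptor, protein S and tissue factor pathway inhibitor, while plasminogen activators dissolve the clot. Acute phase proteins are made in quantity by liver during inflammation, driven by IL-6 and IL-1 through STAT3, C/EBP and NF-kB factors, and several of them are also made by fibroblasts, epithelia and leukocytes.

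The promoters of the acute phase genes are shown because the 6 acute phase genes had the largest median difference of the member roles, and because the transcription factors known to drive them were measured on the same arrays. RefSeq windows (GRCm38.p6) of 250 bases before to 50 bases after the start of transcription were matched by symbol for 28 of the 40 measured members, among them 4 of the 6 acute phase genes. The windows are Lcn2 at chr2:32387690-32387989 (minus strand), Saa1 at chr7:46742931-46743230 (minus strand), Saa3 at chr7:46715627-46715926 (minus strand) and Ptx3 at chr3:66219637-66219936 (plus strand). Each is printed 5′ to 3′ along the gene's own strand, with matches to TTGCNNAA (C/EBP) on either strand, and in Ptx3 also a match to GGGA, any 4 bases, CC (NF-kB), in capitals.
Lcn2: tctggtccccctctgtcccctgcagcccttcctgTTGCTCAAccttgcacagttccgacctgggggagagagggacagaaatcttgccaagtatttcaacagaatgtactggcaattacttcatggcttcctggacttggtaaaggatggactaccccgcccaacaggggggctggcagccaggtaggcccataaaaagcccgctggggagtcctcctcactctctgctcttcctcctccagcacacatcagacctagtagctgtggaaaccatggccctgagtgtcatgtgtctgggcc
Saa1: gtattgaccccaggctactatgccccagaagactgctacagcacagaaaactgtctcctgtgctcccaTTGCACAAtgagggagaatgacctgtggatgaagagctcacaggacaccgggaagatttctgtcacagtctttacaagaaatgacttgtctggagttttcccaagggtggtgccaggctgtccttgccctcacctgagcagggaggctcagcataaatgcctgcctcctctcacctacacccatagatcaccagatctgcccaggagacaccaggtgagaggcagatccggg
Saa3: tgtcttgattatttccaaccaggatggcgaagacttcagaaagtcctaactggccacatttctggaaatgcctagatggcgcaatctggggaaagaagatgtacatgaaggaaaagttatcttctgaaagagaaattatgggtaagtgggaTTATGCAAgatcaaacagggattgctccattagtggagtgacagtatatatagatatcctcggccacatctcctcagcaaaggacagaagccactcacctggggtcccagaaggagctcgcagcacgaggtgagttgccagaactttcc
Ptx3: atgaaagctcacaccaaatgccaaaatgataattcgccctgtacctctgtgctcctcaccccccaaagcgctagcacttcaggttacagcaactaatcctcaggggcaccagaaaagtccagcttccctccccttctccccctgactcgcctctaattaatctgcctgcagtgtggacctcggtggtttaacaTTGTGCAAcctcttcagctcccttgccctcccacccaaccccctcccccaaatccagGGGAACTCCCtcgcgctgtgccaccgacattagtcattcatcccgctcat
A C/EBP match stood in each of these 4 windows, beginning 216 bases before the start in Lcn2, 182 in Saa1, 99 in Saa3 and 57 in Ptx3. The same letters were in 10.8% of all 32851 windows in the table and in 7 of the 28 member genes with a window, the other 3 being C1ra, Plaur and Procr. The NF-kB letters, searched on both strands, were in 20.7% of all windows and in 11 member genes. In Ptx3 they began at the first transcribed base. TTCNNNGAA (STAT) was in 8.30% of all windows and in 4 member genes, and TGANTCA (AP-1) in 7.81% and in 6 member genes. These letter matches are descriptions of the windows, and no binding was measured.

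Array values are log2 values after GCRMA, a background correction and normalization for this array type, so a difference of 1 is a doubling. A gene was tested when it reached 4, a level that 50.2% to 50.6% of probe sets reached on each array, on at least 3 arrays, and it was called when limma's adjusted p (Benjamini-Hochberg over 11722 tested genes) was under 0.05. Of the 40 measured members, 25 were tested and 21 of them were called higher in pNCSC, where 33.1% of all tested genes were called that way. Values under 4 are treated as not above background. The other calls were F2r and Plat, higher in rNCSC (background 40.2%), and Masp1 and Cfp were not called. Over both directions 73.3% of tested genes were called, so a call by itself was common on these arrays. The values of the 25 tested members on each array did not overlap between the groups in 23 cases, against 78.2% of all tested genes. Because these are bulk samples, fewer cells of a type and less RNA per cell cannot be told apart.

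**Figure D1:**
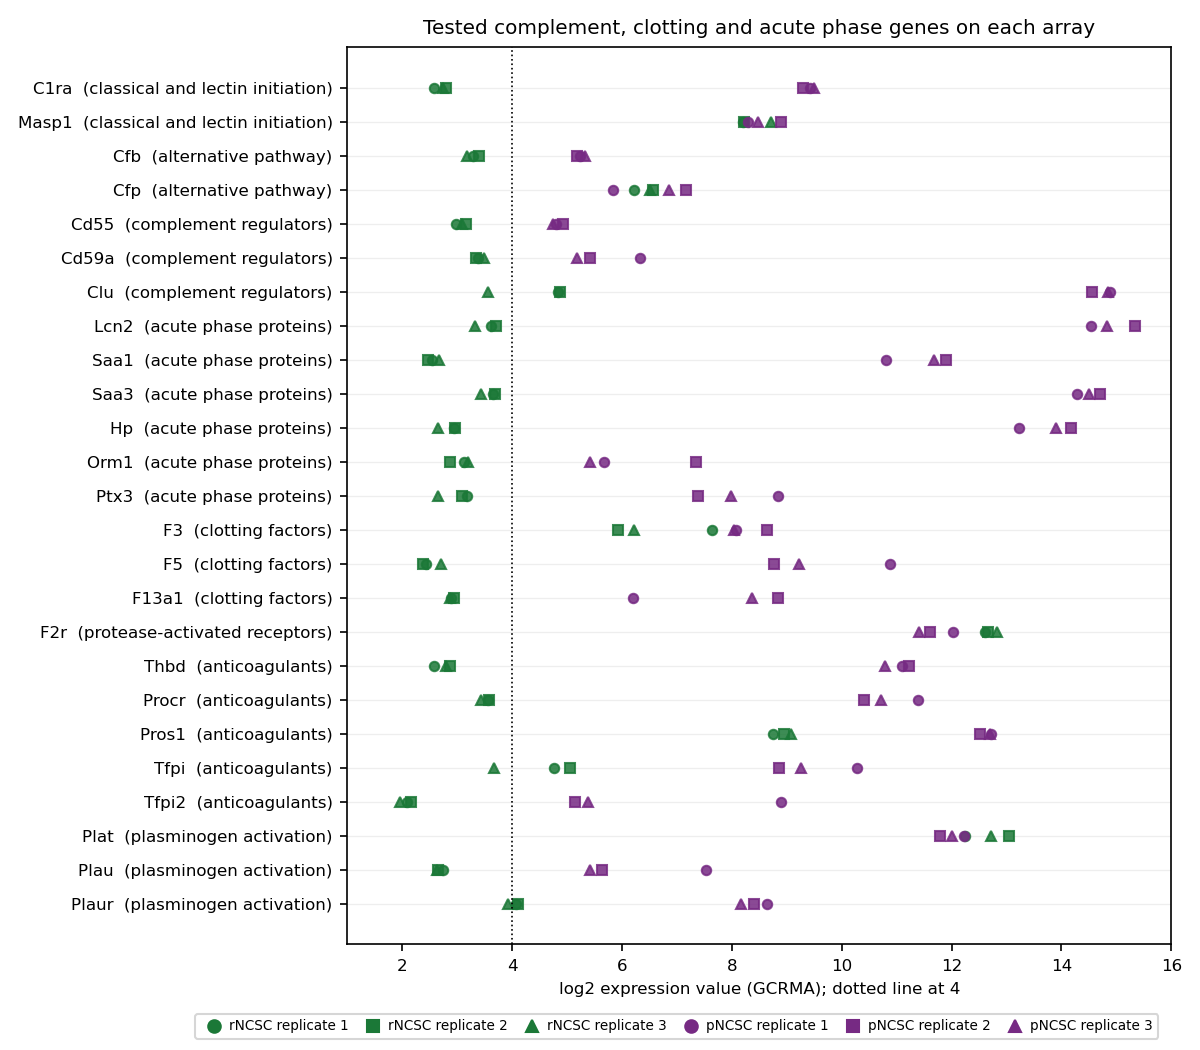
Log2 expression value (x axis, GCRMA) of each of the 25 tested members (y axis, with its role) on each of the 6 arrays, 1 point per array, colour for the group and marker shape for the replicate. Most members lie left of the dotted line at 4 on all rNCSC arrays and well right of it in pNCSC, while F2r and Plat lie far to the right in both groups.

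How genes were admitted to the test bears on that count. Of the 25 tested members, 16 reached 4 on all pNCSC arrays and on no rNCSC array, which held for 997 of the 11722 tested genes. Such genes had to differ. No member was tested through the rNCSC arrays alone, against 684 genes overall. Without the filter, 23 of 40 members were called higher in pNCSC (25.0% of 18194 genes) and 2 higher in rNCSC (28.5%), the additional ones being C6 (mean 3.10 in rNCSC and 3.53 in pNCSC) and Vwf (2.66 and 3.24), whose levels stayed near background. Among the 6 members at 4 or more on all 6 arrays, F3 and Pros1 were called higher in pNCSC (28.0% of 9211 such genes), F2r and Plat higher in rNCSC (41.1%), and Masp1 and Cfp in neither direction. The median log2 difference, rNCSC minus pNCSC, was -1.70 over the 40 measured members and 0.01 over all measured genes. Where a gene or probe set lay under 4 in its lower group, a fold is printed as "at least", after raising that group's arrays under 4 to 4, while log2 differences, standard errors (SE) and p-values are those of the measured values.

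**Figure D2:**
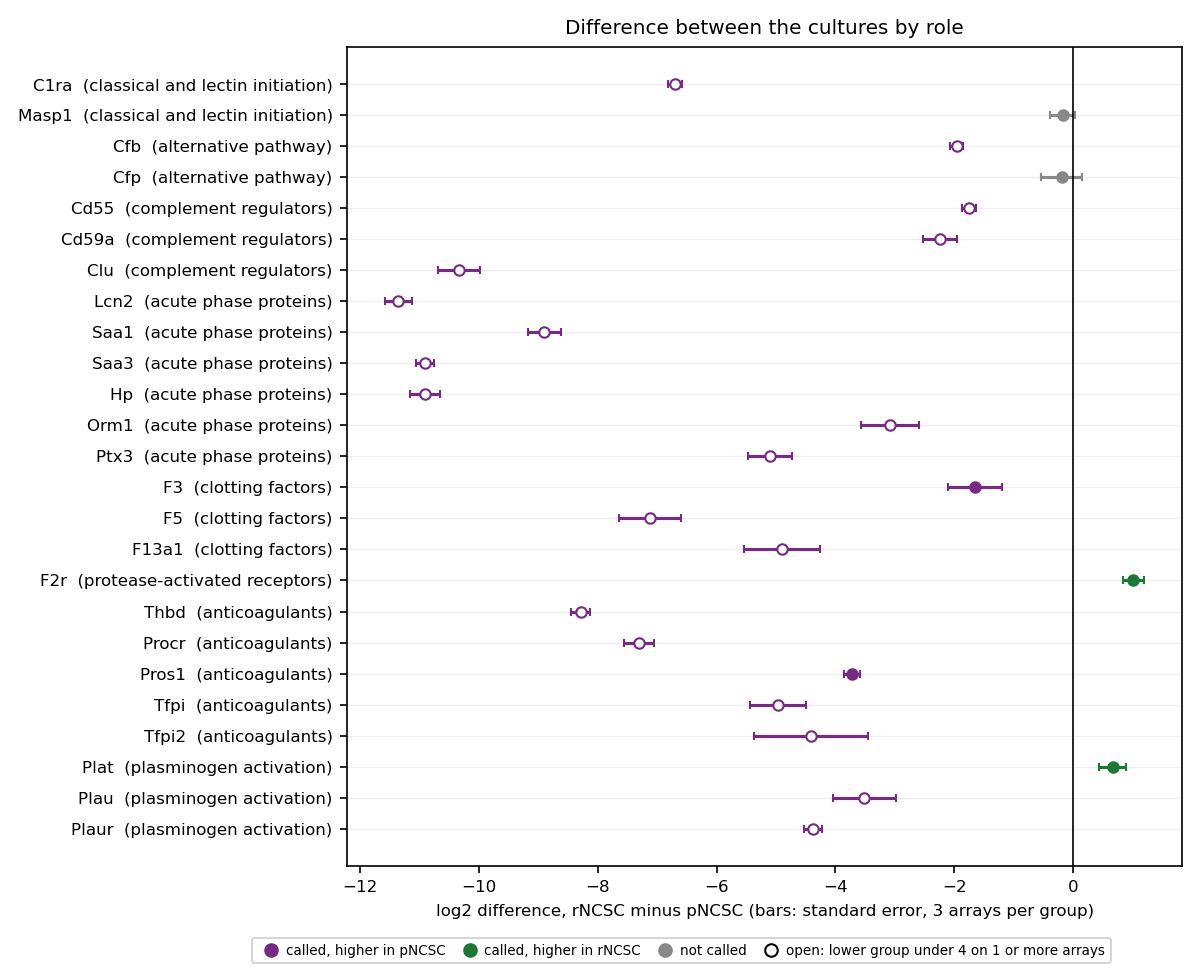
Log2 difference between the groups (x axis, rNCSC minus pNCSC, bars 1 standard error, 3 arrays per group) for the tested members, arranged by role. Open points mark members whose lower group was under 4 on 1 or more arrays. The 6 acute phase genes run from -3.09 to -11.35, whereas F2r at 1.02 and Plat at 0.66 are the called members right of 0.

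Recognition components of the classical and lectin pathways were mostly at background in both cultures. C1qa, C1qb and C1qc, the chains of the recognition protein C1q, had means of 2.44, 3.48 and 2.41 in rNCSC and of 2.39, 3.42 and 2.21 in pNCSC. Masp2, the lectin pathway protease that cuts C4 and C2, had means of 2.85 and 2.97. C2 itself, the protease subunit of the classical C3 convertase, was at 3.58, 3.62 and 3.95 in rNCSC and at 4.95, 3.45 and 3.75 in pNCSC. These 5 genes were too dim to test, and only C2 passed 4, on the first pNCSC array.

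C1ra, the protease that activates C1s within the C1 complex, was the initiation gene that differed. Its values were 2.57, 2.80 and 2.75 on the rNCSC arrays and 9.43, 9.29 and 9.49 on the pNCSC arrays. The cultures were far apart with little spread in either: pNCSC was higher by at least 42.3-fold (log2 difference, pNCSC minus rNCSC, 6.70, SE 0.12, adjusted p = 7.4e-08). Its substrate C1s1, a gene outside the member list, ran alongside at 2.94, 3.02 and 2.85 in rNCSC and 11.97, 10.84 and 11.23 in pNCSC, higher by at least 163-fold (adjusted p = 8.6e-07). Both C1 protease genes were thus well above 4 in pNCSC on arrays where the 3 C1q chains were not above background.

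Masp1, a lectin pathway protease with several splice forms, gave different answers on different probe sets. The brightest one read 8.21, 8.22 and 8.72 in rNCSC and 8.30, 8.89 and 8.47 in pNCSC, overlapping between the groups (difference 0.17 higher in pNCSC, SE 0.21, adjusted p = 0.49). Another read 7.53, 7.16 and 7.97 in rNCSC against 2.87, 3.04 and 3.04 in pNCSC, so rNCSC exceeded pNCSC by at least 11.8-fold (adjusted p = 2.3e-06 when every probe set was tested). A further, dimmer one was higher in pNCSC, at 4.65, 5.39 and 5.23 against 4.03, 4.31 and 4.18 (adjusted p = 0.0057). The remaining probe sets differed by -0.47 and 0.19, rNCSC minus pNCSC, with adjusted p of 0.21 and 0.36. No direction can therefore be given for Masp1 as a gene. Which transcript each probe set reads was not tested.

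**Figure D3:**
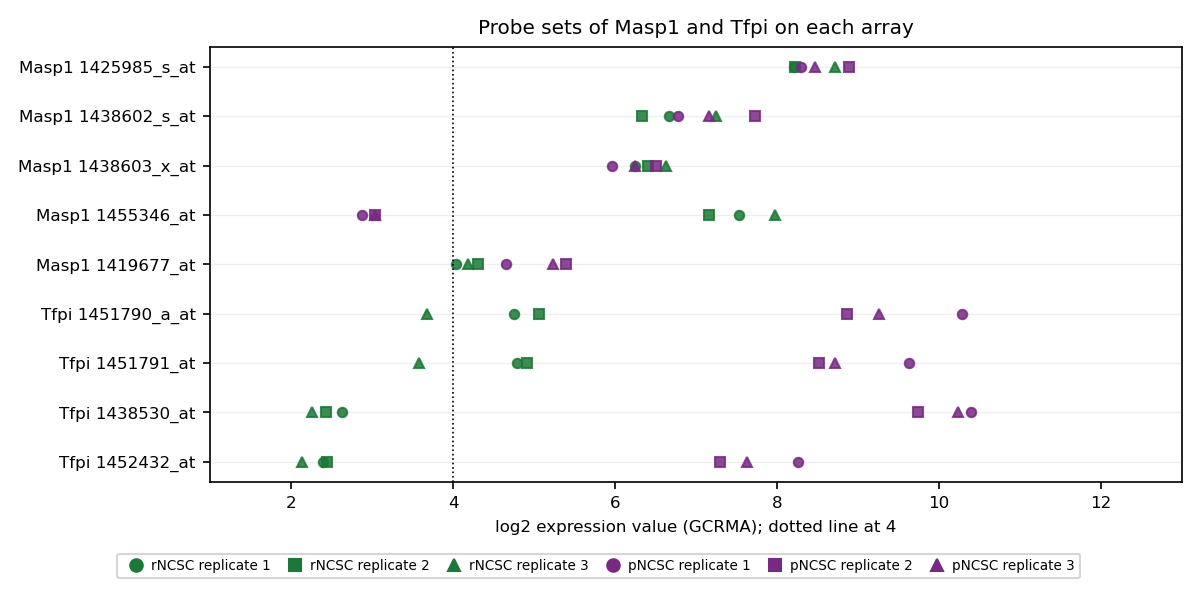
Log2 expression value (x axis, GCRMA) of every probe set of Masp1 and Tfpi (y axis) on each array, 1 point per array, coloured by group. For Masp1, 1 probe set is near 7.56 in rNCSC and near 2.98 in pNCSC while the brightest overlaps between the groups, whereas the Tfpi probe sets all have the pNCSC arrays to the right.

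Of the alternative pathway, Cfb differed and Cfp did not pass the test. Cfb, the protease of the alternative C3 convertase, read 3.29, 3.39 and 3.18 in rNCSC and 5.24, 5.18 and 5.33 in pNCSC. It was low in pNCSC but above background on every array, at least 2.37-fold higher (log2 difference 1.96, SE 0.11, adjusted p = 9.6e-06). Cfp, properdin, which stabilises that convertase, was at 6.21, 6.57 and 6.52 in rNCSC and at 5.83, 7.17 and 6.86 in pNCSC. The first pNCSC array lay below the rNCSC arrays and the other pNCSC arrays above them, and the groups were not separated by the test (adjusted p = 0.63). Without that array Cfp was 0.58 higher in pNCSC on the log2 scale (adjusted p = 0.022). Without pNCSC replicate 2 or 3 it was not called, with log2 differences, rNCSC minus pNCSC, of 0.09 and -0.07 (adjusted p = 0.83 and 0.89). Its dimmer probe set, with means of 4.01 in rNCSC and 4.13 in pNCSC, was not called either (adjusted p = 0.55 when every probe set was tested).

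Terminal components and anaphylatoxin receptors were not above background on most arrays. Hc, the mouse gene for C5, read 2.61, 2.79 and 2.58 in rNCSC and 5.04, 3.17 and 3.14 in pNCSC, passing 4 on 1 array. C6, which joins the membrane pore, stayed under 4 on all arrays. The receptor for C3a, C3ar1, had means of 3.36 and 3.57, and the receptor for C5a, C5ar1, of 3.00 and 2.96. None of these 4 could be tested.

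Regulators that protect host cells from complement were higher in pNCSC where they were measurable. Of 6 measured regulators 3 were tested, and all 3 were called, where 33.1% of all tested genes were called higher in pNCSC. Cd55 and Cd59a were under 4 on every rNCSC array, so these 2 entered the test through pNCSC alone and had to differ. Cd55, which dismantles C3 convertases at the cell surface, read 2.98, 3.16 and 3.09 in rNCSC and 4.79, 4.93 and 4.74 in pNCSC. That is a small but tight difference, at least 1.77-fold (adjusted p = 1.7e-05). Cd59a, which blocks the terminal pore, read 3.38, 3.34 and 3.49 in rNCSC and 6.32, 5.42 and 5.19 in pNCSC, higher by at least 3.13-fold (adjusted p = 0.00042), with the first pNCSC array highest. Clu, clusterin, a secreted chaperone that also binds terminal complexes, read 4.84, 4.87 and 3.57 in rNCSC and 14.88, 14.55 and 14.84 in pNCSC. It was higher by at least 1167-fold (log2 difference 10.33, SE 0.36, adjusted p = 9.8e-07), and its other 3 probe sets differed by 8.55 to 9.17 in the same direction.

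The other regulators among the members were at background. Cd46, a cofactor for cutting C3b, was between 3.78 and 4.03 in rNCSC and between 3.80 and 3.98 in pNCSC. Cfi, the protease that uses such cofactors, had means of 3.19 and 2.94, and Vtn, vitronectin, of 2.44 and 2.39. Beyond the member list, 24 of 30 other complement genes were measured and 8 tested, of which 6 were called higher in pNCSC, 1 higher in rNCSC and Cd93 neither. The 6 are 25% of those measured, near the 21.3% of all measured genes called that way. The largest were Serping1, the C1 inhibitor, at 13.57, 13.77 and 13.64 in pNCSC against 2.57 to 2.72 in rNCSC (at least 810-fold), Colec12, a scavenger receptor with a collectin domain (at least 522-fold), and C1s1. Cr1l, a further complement regulator, was well above 4 on all 6 arrays. It read 8.54, 8.58 and 8.60 in rNCSC and 10.35, 10.80 and 10.40 in pNCSC (3.84-fold, adjusted p = 3.5e-05). C1qbp, a mitochondrial protein that also binds C1q, was 1.71-fold higher in rNCSC (adjusted p = 0.0025). The inhibitor of C1r and C1s was thus among the transcripts higher in pNCSC together with C1ra and C1s1.

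All 6 acute phase members were called higher in pNCSC, with a median log2 difference of 9.90. Of all tested genes, 33.1% were called that way. Each of the 6 was under 4 on every rNCSC array and above 4 on every pNCSC array, so each entered the test through pNCSC alone and had to differ. Saa3, a serum amyloid A made outside the liver, read 3.65, 3.69 and 3.43 in rNCSC and 14.29, 14.70 and 14.49 in pNCSC, higher by at least 1443-fold (log2 difference 10.91, SE 0.15, adjusted p = 3.0e-08). Lcn2, lipocalin 2, which withholds iron from bacteria, read 3.61, 3.70 and 3.33 in rNCSC and 14.54, 15.33 and 14.83 in pNCSC, at least 1912-fold apart (adjusted p = 9.6e-08). Hp, haptoglobin, which binds free haemoglobin, read 2.95, 2.97 and 2.66 in rNCSC and 13.22, 14.17 and 13.89 in pNCSC, higher by at least 868-fold (adjusted p = 1.8e-07). In each of these 3 genes the lowest pNCSC array stood far above the highest rNCSC array.

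The other 3 acute phase members had smaller differences. Saa1 read 2.55, 2.47 and 2.67 in rNCSC and 10.81, 11.89 and 11.68 in pNCSC, higher by at least 176-fold (adjusted p = 6.7e-07). Its other probe set gave a smaller bound, at least 41.5-fold. Ptx3, pentraxin 3, a locally made pattern recognition protein that binds C1q, read 3.19, 3.08 and 2.65 in rNCSC and 8.84, 7.39 and 7.99 in pNCSC, higher by at least 16.8-fold (adjusted p = 2.6e-05). The other Ptx3 probe set was too dim to test, with means of 2.78 in rNCSC and 3.18 in pNCSC. Orm1, orosomucoid, a carrier protein of plasma, read 3.12, 2.88 and 3.20 in rNCSC and 5.68, 7.35 and 5.42 in pNCSC, higher by at least 4.45-fold (adjusted p = 0.0012). Within pNCSC, Saa1, Hp, Lcn2, Saa3 and Orm1 were each lower on the first array than the mean of the other pNCSC arrays, by 0.98, 0.81, 0.53, 0.31 and 0.71, whereas Ptx3 was 1.15 higher there.

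Further acute phase genes came from a second list. Of 26 listed, 24 were measured and 13 tested, and 12 of these were called higher in pNCSC, with Fgl2 not called. The 12 are 50% of those measured, against 21.3% of all measured genes, and 8 of the 13 were tested through pNCSC alone. The largest differences were for S100a8, a calcium-binding protein of myeloid cells and inflamed tissue (at least 1239-fold), Steap4, a metalloreductase (at least 334-fold), and Serpina3n, a protease inhibitor (at least 375-fold). The same direction was measured for Lbp, which carries lipopolysaccharide to CD14, at 11.01, 11.76 and 11.79 in pNCSC against 3.14 to 3.19 in rNCSC. Crp, Apcs, Ahsg, Ambp and Hamp were among the 11 genes too dim to test. Fgl1 (8.42, 8.58 and 7.88 in pNCSC), Saa4 (9.04, 10.61 and 9.92) and Hpx (4.66, 5.14 and 5.25) were among the 12 called. Each of these was under 4 on every rNCSC array.

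Genes that drive the acute phase response were measured on the same arrays. Of 28 listed cytokines, receptors and transcription factors, 25 were measured and 20 tested, with 19 called higher in pNCSC and Lifr higher in rNCSC. The 19 are 76% of those measured, against 21.3% of all measured genes. Of the 20, 8 reached 4 on no rNCSC array and so were tested through pNCSC alone. Osmr, the oncostatin M receptor, read 2.61, 3.25 and 2.65 in rNCSC and 11.96, 11.89 and 11.83 in pNCSC, at least 238-fold higher. Il11, a cytokine that signals through gp130, read 2.86, 2.96 and 2.73 against 12.12, 10.12 and 10.86, at least 131-fold higher. Cebpd, a C/EBP transcription factor of the acute phase, read 5.04, 5.33 and 5.27 against 12.84, 13.12 and 13.20, which is 229-fold higher in pNCSC and rests on arrays above 4 in both groups.

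The IL-6 branch was measurable in pNCSC at each step. Il6 read 1.92, 2.05 and 1.83 in rNCSC and 8.72, 6.03 and 6.60 in pNCSC (at least 8.68-fold), and its receptor Il6ra, under 4 on all rNCSC arrays, was higher by at least 3.46 on the log2 scale. The shared receptor chain Il6st was 11.3-fold higher, Stat3 4.45-fold and Socs3, a feedback inhibitor induced by STAT3, 120-fold higher in pNCSC. Cebpb, the other C/EBP factor of this response, was 127-fold higher. Lifr, the receptor chain for LIF, went the other way, at 10.52, 11.71 and 11.13 in rNCSC and 8.76, 7.68 and 8.16 in pNCSC (7.56-fold, adjusted p = 0.00042), while its ligand Lif was at least 40.9-fold higher in pNCSC. Il1a, Il1b, Tnf, Osm and Hnf4a, the liver factor, were under 4 on all 6 arrays. The signalling activity of these proteins was not measured.

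**Figure D4:**
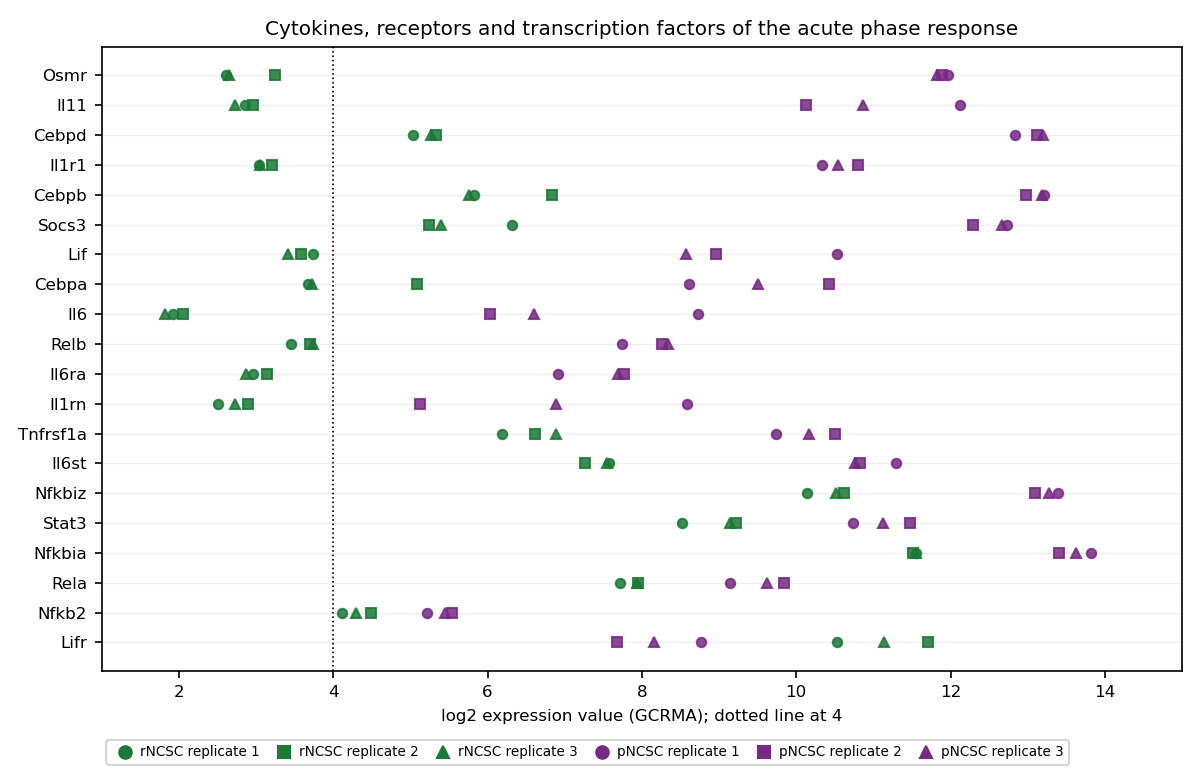
Log2 expression value (x axis, GCRMA) of cytokines, receptors and transcription factors of the acute phase response (y axis) on each array, 1 point per array, coloured by group. Cebpd separates the cultures by 7.84 on the log2 scale, Osmr and Il11 by at least 7.89 and 7.04 with rNCSC arrays set to 4, and Lifr lies higher in rNCSC.

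Among the clotting factors, the trigger and a cofactor were measurable while the liver-made proteases were not. F3, tissue factor, read 7.64, 5.93 and 6.22 in rNCSC and 8.07, 8.64 and 8.04 in pNCSC, 3.15-fold higher (log2 difference 1.65, SE 0.45, adjusted p = 0.014). The rNCSC arrays were spread, the first lying close to the lowest pNCSC array. Leaving out rNCSC replicate 3 (adjusted p = 0.052) or pNCSC replicate 2 (adjusted p = 0.051) ended the call. F5, factor V, the cofactor of activated factor X, read 2.43, 2.37 and 2.71 in rNCSC and 10.89, 8.77 and 9.22 in pNCSC, higher by at least 49.3-fold (adjusted p = 2.8e-05). F13a1, the catalytic subunit of factor XIII, which cross-links fibrin, read 2.90, 2.94 and 2.87 in rNCSC and 6.20, 8.85 and 8.37 in pNCSC, higher by at least 14.0-fold (adjusted p = 0.00047), with the first pNCSC array far below the others. F7 had means of 3.25 and 3.63, F10 of 3.27 and 3.10, and Vwf, the platelet-tethering protein of endothelium, of 2.66 and 3.24, all under 4 on every array.

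F2r, the main thrombin receptor PAR1, was well above 4 in both cultures and higher in rNCSC. It read 12.61, 12.66 and 12.82 in rNCSC and 12.03, 11.61 and 11.41 in pNCSC, a 2.02-fold difference (log2 difference, rNCSC minus pNCSC, 1.02, SE 0.18, adjusted p = 0.0019). Its other probe set differed by 1.48 in the same direction. F2r thus ran opposite to the 3 tested clotting factors and the 5 anticoagulants.

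All 5 anticoagulant genes were tested and called higher in pNCSC, with a median log2 difference of 4.97. Of all tested genes, 33.1% were called that way. Thbd, Procr and Tfpi2 were under 4 on every rNCSC array, so these 3 entered the test through pNCSC alone and had to differ. Thbd, thrombomodulin, which turns thrombin into an activator of protein C, read 2.59, 2.86 and 2.80 in rNCSC and 11.10, 11.23 and 10.78 in pNCSC, higher by at least 131-fold (log2 difference 8.29, SE 0.16, adjusted p = 8.8e-08). Procr, the receptor that presents protein C to that complex, read 3.56, 3.58 and 3.44 in rNCSC and 11.39, 10.41 and 10.71 in pNCSC, higher by at least 114-fold (adjusted p = 9.2e-07). Pros1, protein S, the cofactor of activated protein C, read 8.76, 8.95 and 9.07 in rNCSC and 12.72, 12.52 and 12.70 in pNCSC. It was 13.2-fold higher in pNCSC (adjusted p = 1.1e-06) and was the anticoagulant that was well above background on all 6 arrays.

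Tfpi and Tfpi2 varied more between the pNCSC arrays. Tfpi, the inhibitor of tissue factor with factor VIIa, read 4.76, 5.06 and 3.68 in rNCSC and 10.28, 8.86 and 9.26 in pNCSC, higher by at least 29.1-fold (adjusted p = 0.00010), and its other 3 probe sets differed by 4.53 to 7.69 in the same direction. Tfpi2, a related inhibitor of plasmin and other proteases in matrix, read 2.09, 2.16 and 1.96 in rNCSC and 8.90, 5.15 and 5.39 in pNCSC. It was at least 5.57-fold higher (adjusted p = 0.0050), and its first pNCSC array was more than 3 log2 above the others.

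Plasminogen activation was divided between the cultures. Plat, tissue plasminogen activator, was well above 4 in both, at 12.25, 13.05 and 12.72 in rNCSC and 12.22, 11.79 and 12.02 in pNCSC. It was 1.59-fold higher in rNCSC (adjusted p = 0.034), with the lowest rNCSC array barely above the highest pNCSC array. Leaving out rNCSC replicate 2 (adjusted p = 0.088) or 3 (0.090), or pNCSC replicate 2 (0.10) or 3 (0.080), ended the call, although a dimmer probe set was 1.24 higher in rNCSC on the log2 scale (adjusted p = 0.0033). Plau, urokinase, read 2.75, 2.64 and 2.64 in rNCSC and 7.53, 5.63 and 5.41 in pNCSC, higher by at least 4.57-fold (adjusted p = 0.00096). The other probe set of Plau was too dim to test, with means of 3.08 in rNCSC and 3.62 in pNCSC. Plaur, its receptor at the cell surface, read 4.07, 4.11 and 3.92 in rNCSC and 8.65, 8.40 and 8.18 in pNCSC, higher by at least 20.3-fold (adjusted p = 9.5e-07). The tissue-type activator was thus measured in both cultures, while the urokinase pair was at or near background in rNCSC.

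Of 37 other clotting and fibrinolysis genes, 33 were measured and 14 tested, with 12 called higher in pNCSC, Plgrkt higher in rNCSC (1.72-fold) and Serpinf2 not called. The 12 are 36.4% of those measured, against 21.3% of all measured genes, and 2 of the 14 were tested through pNCSC alone. Kng1, kininogen, was at least 46.1-fold higher in pNCSC, Anxa2, a surface anchor for plasminogen and its tissue-type activator, 43.6-fold, and Thbs1, thrombospondin 1, at least 17.4-fold. Fga, Fgb and Fgg, the fibrinogen chains, and F2, the prothrombin gene, were too dim to test, as was Plg, which encodes plasminogen. The substrates of the clotting and clot-dissolving enzymes were thus not above background on at least 3 arrays. For called members with several probe sets, the choice of probe set did not turn the direction: 15 other probe sets of 10 such members all had the same sign, 12 passed the test and 3 were too dim. Those 3 belong to Cd55, Ptx3 and Plau.

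The spread of the tested members among the pNCSC arrays is given as a description, since 16 of the 25 were tested through pNCSC alone. Their median SD in pNCSC was 0.40, against 0.19 over all tested genes. The first pNCSC array differed from the mean of the other pNCSC arrays by 1 log2 or more in 8 of 25 members (32%), against 686 of 11722 genes (5.85%). It was higher in Tfpi2 by 3.63, in Plau by 2.00, in F5 by 1.90, in Tfpi by 1.22, in Ptx3 by 1.15 and in Cd59a by 1.02. In F13a1 the gap was -2.41 and in Cfp -1.18. With that array left out, all 8 were called higher in pNCSC, Cfp included, and the log2 differences, rNCSC minus pNCSC, became -5.70 for F13a1, -3.20 for Tfpi2, -2.85 for Plau and -6.49 for F5. Without pNCSC replicate 2 that of Tfpi2 was -5.07 and that of Orm1 -2.49.

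**Figure D5:**
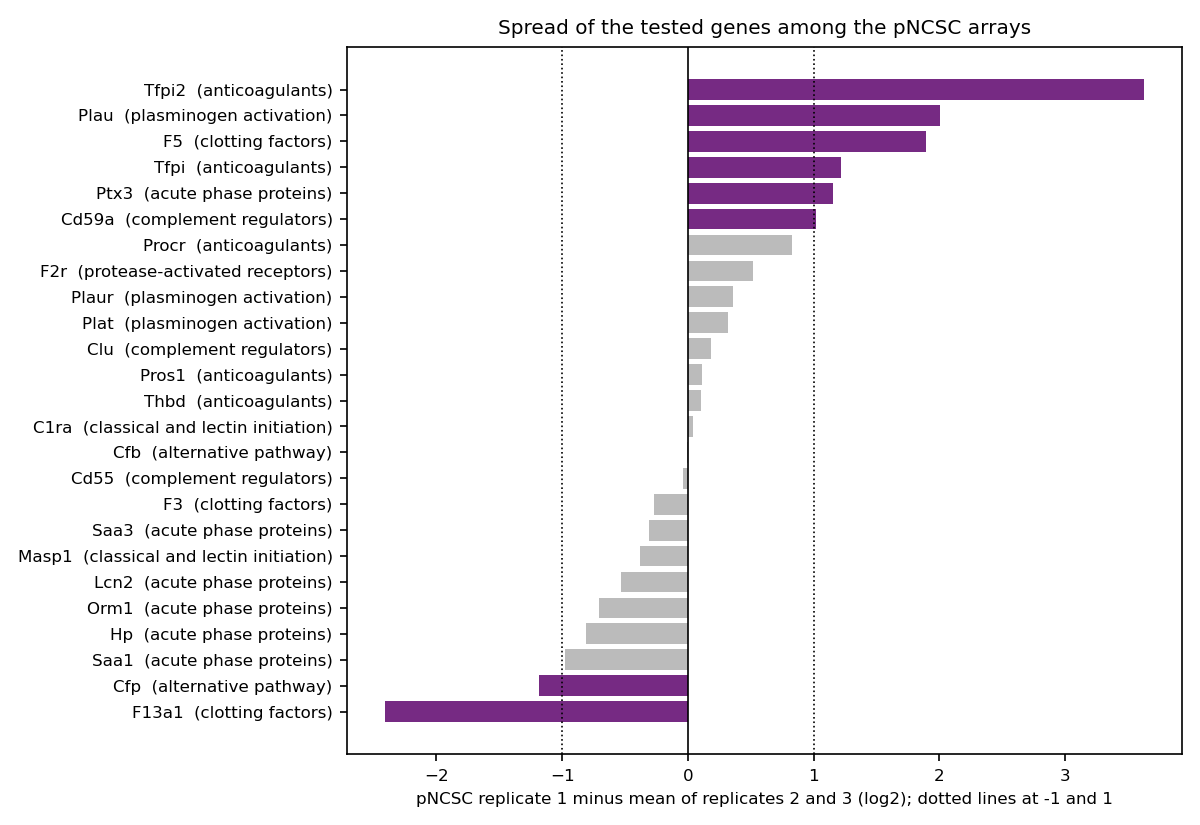
Difference between pNCSC replicate 1 and the mean of pNCSC replicates 2 and 3 (x axis, log2) for each tested member (y axis), with dotted lines at -1 and 1. Tfpi2 at 3.63 lies farthest to the right and F13a1 at -2.41 farthest to the left.

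Markers of other cell types were measured on the same arrays. Their counts can be read against all measured genes, of which 21.3% were called higher in pNCSC. The share was 35.3% of macrophage, 33.3% of mast cell, 20.0% of neutrophil and 37.5% of epithelial markers measured. Of 17 measured macrophage markers, 6 were called higher in pNCSC, led by Cd14 (11.19, 9.10 and 9.34), Trem2 (8.02, 9.19 and 7.93) and Cd53 (9.11, 7.21 and 7.92), each under 4 in rNCSC. The summed level of the list was 7.24 to 7.42 in rNCSC and 11.72, 10.67 and 10.57 in pNCSC, and 9 markers, among them the defining genes Ptprc, Csf1r, Adgre1 and Aif1, were under 4 on all arrays. Of 9 measured mast cell markers, 3 were called higher in pNCSC, with Cpa3 at 6.45, 10.53 and 11.82, Cma1 at 4.42, 7.68 and 9.88, and Mcpt4 at 4.35, 7.30 and 8.29. None of the 9 was under 4 on all arrays. Between 4 and 9 of them reached 4 on each pNCSC array, against 1 on each rNCSC array. The summed level of the mast cell list was 6.28 to 6.88 in rNCSC and 7.68, 11.03 and 12.45 in pNCSC. Within pNCSC it was lowest on the array where F13a1 and Cfp were lowest and Tfpi2 was highest. The epithelial sum was also lowest there, at 8.46, 10.02 and 9.89 in pNCSC against 6.35 to 6.46 in rNCSC, and the macrophage sum was highest there. F13a1, Cfp and the epithelial sum were highest on pNCSC replicate 2, the mast cell sum on replicate 3. The part of any of these cell types in the results on F13a1, Cfp, Tfpi2 and the other members was not tested.

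Neutrophil, liver, endothelial and platelet markers gave the following levels. Of 10 measured neutrophil markers, S100a8 and Camp were called higher in pNCSC. The summed level was 6.35 to 6.40 in rNCSC and 14.19, 14.37 and 14.48 in pNCSC, nearly all of it from S100a8 (14.15, 14.26 and 14.41), which is also on the acute phase list. Of the 10, 7 were under 4 on all arrays, among them Mpo, Elane, S100a9 and Csf3r. None of 10 hepatocyte markers could be tested. Alb, Ttr and Apoa1 were under 4 on all arrays, Fga and Apoh passed 4 on some pNCSC arrays, and the summed level was 6.30 to 6.40 in rNCSC and 6.62 to 6.80 in pNCSC. Of 10 endothelial markers 9 were under 4 on all arrays, with Esam at 4.32 on 1 pNCSC array and a summed level of 6.24 to 6.37 against 6.39 to 6.55. Thbd, Procr and Tfpi, known for their place on endothelium, were thus measured high in pNCSC while Pecam1, Cdh5, Kdr and Tek were under 4. Of 5 measured platelet markers 4 were under 4 on all arrays. Of 8 epithelial markers, 3 were called higher in pNCSC, with Perp at 6.42, 9.80 and 9.69, Krt18 at 7.22, 4.95 and 4.25, and Epcam at 5.58, 5.42 and 5.52. All 10 mesenchymal markers were called higher in pNCSC, for example Col3a1 at 14.46, 14.49 and 14.44 against 2.70 to 3.22 in rNCSC. Of these 10, 7 were tested through pNCSC alone. The mesenchymal summed level was 7.70 to 9.40 in rNCSC and 16.42, 16.08 and 16.18 in pNCSC, and its part in the members' differences was not tested.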

How the data were processed

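Total RNA for the 6 arrays was labelled from 500 ng and hybridised to Affymetrix mouse arrays, per the labels' protocols. The authors' deposited table holds log2 values for 45101 probe sets. The submitters' processing notes name GCRMA, with no version. The log2 scale was read from the values (1.22 to 15.58, array medians 4.01 to 4.04). Because GCRMA equalises the arrays' distributions, a general rise or fall in 1 culture could not be seen. Between 50.2% and 50.6% of probe sets reached 4 on each array, and 3 arrays per group limit the precision.

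Names came from the platform's annotation (34958 probe sets with 1 symbol). Left out were 932 with several symbols and 9211 unnamed here. The brightest probe set of each gene was kept, and 6472 genes under 4 on 4 or more arrays were left out. Groups were taken from the titles and compared in R 4.3.3 with limma 3.58.1 (lmFit, eBayes), two-sided, without covariates, with Benjamini-Hochberg adjustment at 0.05. With 3 arrays against 3, an exact permutation p cannot go below 0.1. Summed levels are log2 of the sum of unlogged values over a marker list. The script was tested on simulated data.

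The members, roles and lists were chosen with earlier results of these data known. Named were all members and, from every other list, up to 3 called genes per direction with the largest difference and no overlap. Genes named beyond that rule were chosen after their values were seen. Alternatives covered the filter, the choice of probe set, normalization, the variance model, the replicate number as a block, a minimum difference (treat), a floor of 3, leaving out each array and, added after seeing the data, testing every probe set.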

Additional observations from a re-analysis of the deposited data

How the results depend on the processing

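The count of members called higher in pNCSC stayed at 20 to 22 when any 1 array was left out and the count higher in rNCSC at 1 to 2. Of the single member results under the alternatives, 425 kept their side of the threshold without turning in a called result. A further 10 were no longer past it, 1 newly passed it and 2 turned and were called. Both that turned with a call were Masp1, at 0.64 with the mean of its probe sets and at 4.57 with probe sets whose names end in _s_at, _x_at or _a_at left out (log2, rNCSC minus pNCSC). Among the 425, Cfp changed sign without pNCSC replicate 2 (0.09, rNCSC minus pNCSC) but was called in neither fit. The median difference of tested members, -4.41, was -1.70 with no filter, -2.24 with a filter at 3, -5.10 with a filter at 6 and -3.72 without those probe sets, as different members are tested. With the replicate number as a block, 1 member was called higher in rNCSC, the Plat call being lost (adjusted p = 0.071). Same-numbered arrays deviated together at r of 0.04, -0.04 and -0.03, and 2 of 6 arrays correlated best with their own number. These values gave no sign of pairing by number but cannot exclude it, and the labels name no pairing. With limma's treat at a minimum difference of 1, 3892 genes were called in place of 8596 and 0 members were higher in rNCSC (0 also at an unadjusted p under 0.05), and F3 was lost too. A floor of 3 in place of 4 enlarged the bounded folds. Levels under about 4 have no usable order, so the dim members are bounds and not absences.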
